A study of Mus musculus with 4 samples.

Results

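Keratins are the intermediate filament proteins of epithelia and hair, and keratin-associated proteins (KAPs) are the small cysteine- or glycine-rich proteins in which the keratin filaments of the hair shaft are embedded. The genes described here are the protein-coding genes of the mouse GRCm38.p6 annotation whose symbols begin with Krt and a digit or with Krtap, 109 of 21887 protein-coding genes. They comprise 28 type I keratin, 25 type II keratin and 56 KAP genes. Accessibility was read from ATAC-seq peaks, sites that a transposase cuts more often than the surrounding DNA, lying within 1 kb of either end of each gene.

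The cells were pachytene spermatocytes, male germ cells in mid meiosis, taken from mouse testis and kept for 12 h with BMH-21 at 2.5 µM or with DMSO alone (mock). BMH-21 blocks RNA polymerase I, which makes pre-rRNA. Each group had 2 libraries, called biological replicates by the submitters. The labels state neither strain nor age, nor whether the replicates were separate animals, so the spread between libraries may be partly technical. The authors called peaks in each library by itself and deposited 51234 and 55459 peaks for BMH-21 cells, against 109230 and 117905 peaks for mock cells. The shorter BMH-21 lists touch every count and percentile below, and read totals were not given, so the depth is unknown. The value given for a peak is the authors' fold over the local background of the same library, which was not normalised between libraries. A percentile ranks a peak by this fold within its own list. Percentiles from lists of unequal length are therefore not directly comparable between the groups. A gene's value is that of its strongest gene-end peak in each library, which need not be the same region in every library. A gene without a peak fell below the authors' threshold in that library and need not be closed.

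Type I and type II keratins pair with each other to form filaments, and each epithelium uses its own pairs: Krt8 with Krt18 in simple epithelia, Krt5 with Krt14 in the basal epidermis, Krt1 with Krt10 above it, and a separate set in the hair shaft and its sheaths. The type I genes lie together on mouse chromosome 11 and the type II genes on chromosome 15, where the type I gene Krt18 also lies beside its partner Krt8. The KAP genes lie inside the chromosome 11 cluster, in a cluster of their own on chromosome 16 and in smaller groups. Most of these genes are known from epithelia and hair, outside the germ line.

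The promoters of 87 members could be read from RefSeq (GRCm38.p6), each as 250 bases before to 50 bases from the annotated start. The 6 shown carry the contrasts described below. Krt7 had a start peak in every library and Krt18 in all but 1, and both are simple epithelial keratins. Krtap17-1 was the KAP gene with a peak in every library, Krt10 and Krtap5-2 had start peaks in mock libraries only, and Krtap6-1 stands for the chromosome 16 genes without a peak. The windows are, for Krt7, chr15:101412153-101412452 on the plus strand, for Krt18, chr15:102027966-102028265 on the plus strand, for Krtap17-1, chr11:99993945-99994244 on the minus strand, for Krt10, chr11:99389315-99389614 on the minus strand, for Krtap5-2, chr7:142175956-142176255 on the minus strand, and for Krtap6-1, chr16:89031449-89031748 on the plus strand. Capitals mark, on either strand, the TATA box letters TATAAA, the GC box letters GGGCGG and the CCAAT box.
Krt7: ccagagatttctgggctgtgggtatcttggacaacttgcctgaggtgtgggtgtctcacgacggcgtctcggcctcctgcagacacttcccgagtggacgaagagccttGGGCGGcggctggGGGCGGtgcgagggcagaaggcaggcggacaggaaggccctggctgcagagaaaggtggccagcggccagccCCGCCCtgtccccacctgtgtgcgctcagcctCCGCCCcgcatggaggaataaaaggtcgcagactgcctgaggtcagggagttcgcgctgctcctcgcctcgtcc
Krt18: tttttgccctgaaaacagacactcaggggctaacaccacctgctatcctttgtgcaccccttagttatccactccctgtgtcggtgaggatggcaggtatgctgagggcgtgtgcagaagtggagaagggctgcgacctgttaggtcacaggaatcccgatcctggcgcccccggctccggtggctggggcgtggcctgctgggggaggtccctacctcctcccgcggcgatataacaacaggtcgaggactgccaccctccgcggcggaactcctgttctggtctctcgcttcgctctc
Krtap17-1: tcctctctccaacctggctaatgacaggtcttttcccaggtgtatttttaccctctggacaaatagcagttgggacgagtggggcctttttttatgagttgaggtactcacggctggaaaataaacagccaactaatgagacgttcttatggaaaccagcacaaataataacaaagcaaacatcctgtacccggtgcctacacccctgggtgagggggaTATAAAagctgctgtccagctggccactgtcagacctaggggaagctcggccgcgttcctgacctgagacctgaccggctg
Krt10: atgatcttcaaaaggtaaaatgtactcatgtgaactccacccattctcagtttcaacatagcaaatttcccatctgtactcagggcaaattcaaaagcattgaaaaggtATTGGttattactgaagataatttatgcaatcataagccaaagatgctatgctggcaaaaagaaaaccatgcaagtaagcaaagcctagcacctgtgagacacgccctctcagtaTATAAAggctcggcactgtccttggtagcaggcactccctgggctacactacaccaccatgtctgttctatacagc
Krtap5-2: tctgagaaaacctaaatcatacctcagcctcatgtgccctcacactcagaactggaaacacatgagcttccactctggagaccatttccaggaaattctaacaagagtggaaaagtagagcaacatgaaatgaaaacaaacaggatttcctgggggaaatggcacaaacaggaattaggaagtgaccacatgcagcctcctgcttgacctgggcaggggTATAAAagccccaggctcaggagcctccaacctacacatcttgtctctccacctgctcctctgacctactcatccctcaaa
Krtap6-1: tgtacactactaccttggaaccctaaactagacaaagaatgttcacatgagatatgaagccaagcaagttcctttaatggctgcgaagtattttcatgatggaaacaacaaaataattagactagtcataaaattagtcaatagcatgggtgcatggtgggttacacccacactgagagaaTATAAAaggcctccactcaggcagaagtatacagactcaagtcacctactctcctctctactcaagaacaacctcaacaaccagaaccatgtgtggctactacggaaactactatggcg

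TATAAA stood in 69.3% of the 88 member promoters, against 12.6% of all 21263 protein-coding promoters, and in 59.1% of the 22 type I, 40% of the 15 type II and 82.4% of the 51 KAP promoters. GGGCGG, a GC box, stood in 2.27%, against 46.2% of all, and its 2 carriers were Krt7 and Krt75. CCAAT stood in 37.5% of member promoters and 38.2% of all. The median GC content was 45.8% in type I, 53% in type II and 41.3% in KAP promoters, against 56.3% in all, and the median number of CpG sites per window 3 in members and 13 in all. Krt7 with 21 CpG sites and Krt18 with 17 lay above that general median. Besides Krt7, the members with a start peak in every library lay below it: Krt8 with 6, Krt79 with 3 and Krtap17-1 with 8. Krt20, a simple epithelial keratin without a peak, had 6. In Krtap17-1 and Krtap5-2 the TATAAA began at base 220 of the window, ahead of the start, and in Krt10 at base 225. These are matches of letters and not bound sites.

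Across the 109 genes, peaks at gene ends were fewer after BMH-21. The family was selected on these same peak values, so the counts are a description without a test. A peak stood at an end of 14 and 15 members in the BMH-21 libraries, against 52 and 48 in the mock libraries. Any library held a peak for 59 members (54.1%), against 73.5% of all protein-coding genes. Both BMH-21 libraries held one for 11 members (10.1%, background 59.3%), and both mock libraries for 43 (39.4%, background 68.7%). The members' share lay below the background in both groups of libraries.

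Mock-only genes had a peak in each mock library and in no BMH-21 library, and 27 members were of this kind (24.8%), against 7.93% of all protein-coding genes. Set against the genes held by both mock libraries, the mock-only share was 62.8% of the members' 43 and 11.5% of all. The reverse, BMH-21-only, was found for 0 members (background 0.8%). A peak in all 4 libraries was found for 11 members (10.1%, background 57.9%). The other 21 members with a peak were held by 1 mock library (14), by 1 BMH-21 library (Krt28 and Krt77) or by 3 libraries (Krt81, Krt86, Krt84, Krt72 and Krt18), and 50 members had none. In a further count every list was limited to its 51234 most significant peaks, the length of the shortest, ranked by deposited significance and not by fold. There 7 of 21 members held by both mock libraries were mock-only (33.3%), against 7.02% of all protein-coding genes.

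The 3 kinds of gene differed in how often they had a peak at all. Of the 25 type II keratin genes 23 had a peak in some library, of the 28 type I genes 15 and of the 56 KAP genes 21. Among those held by both mock libraries, 8 of 19 type II, 8 of 12 type I and 11 of 12 KAP genes were mock-only. The other large family read in the same way, the 1110 olfactory receptor genes, had 22 genes held by both mock libraries, of which 15 (68.2%) were mock-only. Of 31 collagen genes held by both 11 (35.5%) were mock-only, and of 217 other genes in or within 1 Mb of the keratin clusters 47 (21.7%). With lists of equal length the share was 55.6% of 9 olfactory receptor, 28% of 25 collagen and 11.2% of 179 such other genes. The members' share in that setting was 33.3%.

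**Figure D1:**
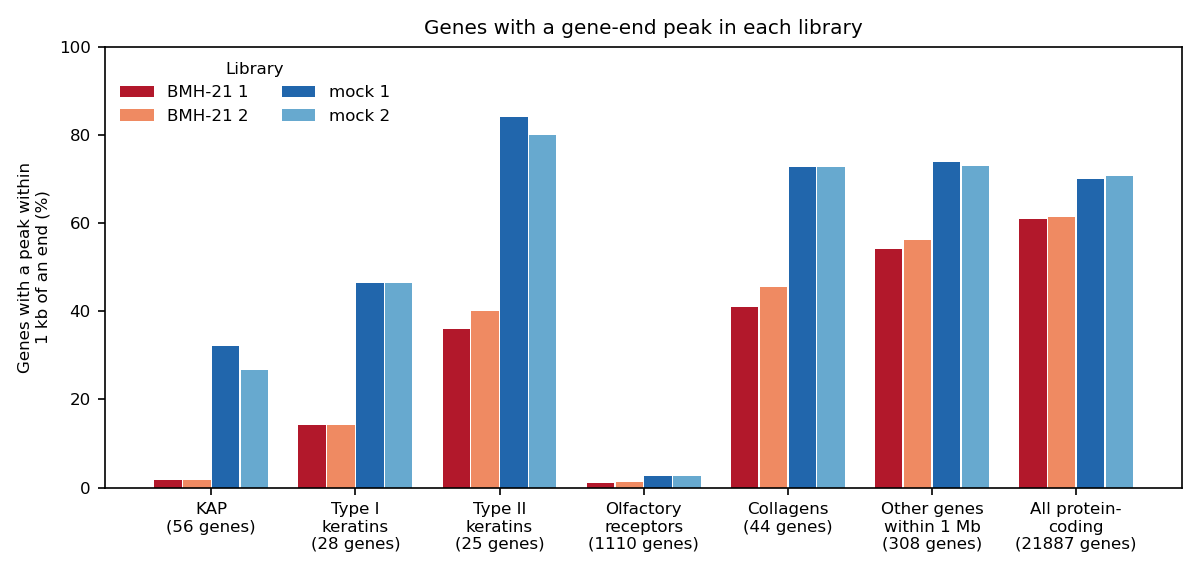
Percent of genes that had a gene-end peak (vertical axis) in each library, for the 3 member types, 2 other families, the neighbours of the clusters and all protein-coding genes; 1 bar per library, BMH-21 in reds and mock in blues. KAP genes had a peak for 1.79% in each BMH-21 library, against 32.1% and 26.8% in the mock libraries, and type II keratins for 36% and 40%, against 84% and 80%.

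The simple epithelial keratins were the class without a mock-only gene: of Krt7, Krt8, Krt18, Krt19 and Krt20, 4 had a peak in both mock libraries and 3 in all 4. Krt7 (chr15:101412403-101427806), found in glandular and ductal epithelia, had a peak over its start, chr15:101412180-101412916, with a fold of 3.66 and 3.62 in BMH-21 libraries, against 4.70 and 5.28 in mock libraries. The 2 groups did not overlap in fold, with BMH-21 lower. In percentiles, of lists unequal in length, they stood at 26.3 and 24.0 in BMH-21, against 59.6 and 69.3 in mock.

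Krt8 (chr15:101996711-102004342), among the first keratins of the embryo, had peaks near both ends in every library. Its start-side region in all 4 libraries, chr15:102002924-102003527, had a fold of 5.97 and 4.90 in BMH-21 libraries, against 4.47 and 3.74 in mock libraries. Its strongest summit lay 978 bp inside the gene. Nearer the start no BMH-21 library had a peak. There chr15:102003665-102004161 had 2.57 and 2.38 in mock libraries, and chr15:102004814-102005159, upstream, 3.17 and 3.07. Mock library 2 alone had chr15:102004302-102004521 (2.75), at the start. The other region in all 4 libraries, chr15:101995413-101996129, lies beyond the 3′ end of Krt8, inside Krt78, a keratin of stratified epithelia. It is within 1 kb of an end of each. It had a fold of 9.06 and 8.71 in BMH-21 libraries, against 3.71 and 3.65 in mock libraries. This was the widest gap in that direction among the regions at member ends found in all 4 libraries, and the percentiles were 92.3 and 89.9 in BMH-21, against 31.7 and 28.6 in mock.

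Krt18 (chr15:102028216-102032026), the type I partner of Krt8, had 3.54 in BMH-21 library 1 and no peak in BMH-21 library 2, against 4.23 and 5.03 in mock libraries. Krt19 (chr11:100140810-100145926), the smallest type I keratin, had 9.78 and 8.71 in BMH-21 libraries, against 6.32 and 8 in mock libraries, in 1 region, chr11:100145112-100145531. Here BMH-21 was the higher group, without overlap. A region at the opposite end of Krt19, chr11:100140964-100141326, was mock-only, with 3.78 and 2.99 in mock libraries. Krt20, of the gut epithelium, had no peak in any library.

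Of the 15 keratins of skin and mucosa 10 had a peak in both mock libraries, 7 were mock-only and 3 were in all 4. The mock-only ones were Krt5 of basal keratinocytes, Krt2 of the upper epidermis, Krt9 of footpad skin, Krt4 of the oral and oesophageal lining, Krt12 of the cornea, and Krt16 and Krt17, which are induced on wounding. Krt16 had no peak in the BMH-21 libraries, against a fold of 6.42 and 8.09 in mock libraries, and Krt2 none, against 7.43 and 6.92. Both were among the stronger peaks of the mock lists, at percentiles of 81.7 and 90.7 for Krt16 and 88.2 and 84.5 for Krt2.

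Krt9 had no peak in BMH-21 libraries, against 5.96 and 5.08 in mock libraries, and Krt5 none, against 4.57 and 5.72, values that came from separate mock-only regions. Krt12 had none, against 4.15 and 5.27. Among the mock-only genes of the class the weakest were Krt4, with none in BMH-21 against 3.47 and 3.59 in mock, and Krt17, with none in BMH-21 against 3.45 and 2.66 in mock. In Krt17 the second mock value stood at percentile 6.39 of its list by fold. Its −log10 q was 5.08, against a smallest value of 2.06 in that list. Krt13, the mucosal partner of Krt4, had a peak in 1 mock library (3.20) and Krt76 of the palate in the other (4.69), while Krt15, Krt6a and Krt6b had none.

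Krt10, Krt1 and Krt14 had a peak in all 4 libraries, in a common region at Krt10 and Krt1 but not at Krt14. Krt10, the suprabasal type I keratin, had 9.12 and 9.07 in BMH-21 libraries, against 7.55 and 7.72 in mock libraries, in chr11:99385858-99386732, inside the 3′ end of the gene. Its transcript start, 4110 bp from the nearest annotated gene end, had a peak in the mock libraries only, with 5.54 and 6.18. Krt1, its type II partner (chr15:101845426-101850786), had 6.69 and 8.01 in BMH-21 libraries, against 7.03 and 6.69 in mock libraries, so the groups overlapped. Another region at Krt1, chr15:101844599-101845136, was mock-only, with 3.96 and 5.09 in mock libraries.

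Krt14 (chr11:100203162-100207510), the basal type I keratin, had no region shared by the 4 libraries. Both BMH-21 libraries had a peak at chr11:100203529-100203799, with 4.95 and 7.04. Mock library 1 had another at chr11:100203292-100203491 (3.43), and mock library 2 had one at the opposite end, chr11:100207266-100207520 (3.44). The count of 11 members with a peak in all 4 libraries therefore rests on 10 regions at other genes, and Krt14 on separate peaks.

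Of the 14 hair keratins 7 had a peak in some library, and those were 5 of 5 type II but 2 of 9 type I genes. Krt84, a hard keratin of tongue and nail, had 3.77 in BMH-21 library 1 and none in library 2, against 9 and 9.05 in mock libraries, at its 3′ end (chr15:101525295-101526075). It was the strongest mock signal at any type II keratin gene. At Krt86 the region chr15:101479005-101479642 had none in BMH-21 library 1 and 4.27 in library 2, against 4.33 and 5.10 in mock. Another region there was in BMH-21 library 2 alone (4.65), and a further one was mock-only (4.19 and 5.67). Krt81 had none and 3.26 in BMH-21, against 5.04 and 4.82 in mock. Both form the hair cortex with Krt83, which was mock-only with no peak in BMH-21 against 3.82 and 4.39 in mock.

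Among the type I hair keratins Krt35 was mock-only, with none in BMH-21 against 3.31 and 4.99 in mock. Those 2 mock peaks stood at opposite ends of the gene, each in 1 library, and Krt35 is not mock-only where the same end is required, which leaves 26 such members. Krt36 had a gene-end peak in mock library 1 alone (5.39), while BMH-21 library 2 had a peak 556 bp inside its transcript start, against 131 bp inside in mock library 1. That start lies 3614 bp from the nearest gene end. Krt31, Krt32, Krt33a, Krt33b and Krt34, which lie side by side, had none, nor did Krt39 and Krt40. Of the keratins of the inner root sheath, the layer that moulds the growing hair, Krt71 was mock-only, with none in BMH-21 against 2.97 and 4.66 in mock in the region both mock libraries held. Krt72 had 3.57 in BMH-21 library 1 and none in library 2, against 5.96 and 5.98 in mock. Krt73 had a peak in mock library 1 only (3.97) and Krt28 in BMH-21 library 2 only (4.89), while Krt25, Krt26 and Krt27 had none. Krt75 of the companion layer, which lies against that sheath, had none in BMH-21, against 5.87 and 6.29 in mock.

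Of the 11 remaining keratin genes, whose sites of expression are various or less settled, 9 had a peak in both mock libraries, 5 of them mock-only. Krt24 had the highest mean mock fold of the 27 mock-only members, with none in BMH-21 libraries against 6.86 and 11 in mock libraries (chr11:99284788-99285274, over its start). Krt23 had none in BMH-21, against 6.5 and 3.95 in mock. Krt42 had none in BMH-21, against 3.35 and 2.83 in mock, and Krt80 none, against 3.77 and 3.69. At Krt90 the regions near its 2 ends had none in BMH-21, against 3.48 and 4.03 at one end and 3.07 and 4.32 at the other in mock. Krt77 had a peak in BMH-21 library 2 alone (4.5), and Krt222 had none.

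The neighbours Krt87 and Krt88 each had 1 region in all 4 libraries and a second in both BMH-21 libraries only. At Krt87 the shared region, chr15:101438509-101439141, had 3.84 and 3.01 in BMH-21 libraries, against 4.97 and 4.68 in mock libraries. The BMH-21-only region beside it, chr15:101437634-101438019, had 4.68 and 5.57. At Krt88 the shared region, chr15:101453007-101453726, had 5.39 and 6.93 in BMH-21, against 5.30 and 5.54 in mock, so the groups overlapped. Its BMH-21-only region at the other end, chr15:101447406-101448246, had 6.26 and 6.10. Krt79, expressed in the duct of the sebaceous gland, had 3.77 and 4.02 in BMH-21, against 2.74 and 3.15 in mock, at chr15:101939102-101939503. In the mock libraries Krt79 also had a stronger peak upstream of its start, chr15:101940342-101940961, with 4.55 and 4.82, which no BMH-21 library held.

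**Figure D2:**
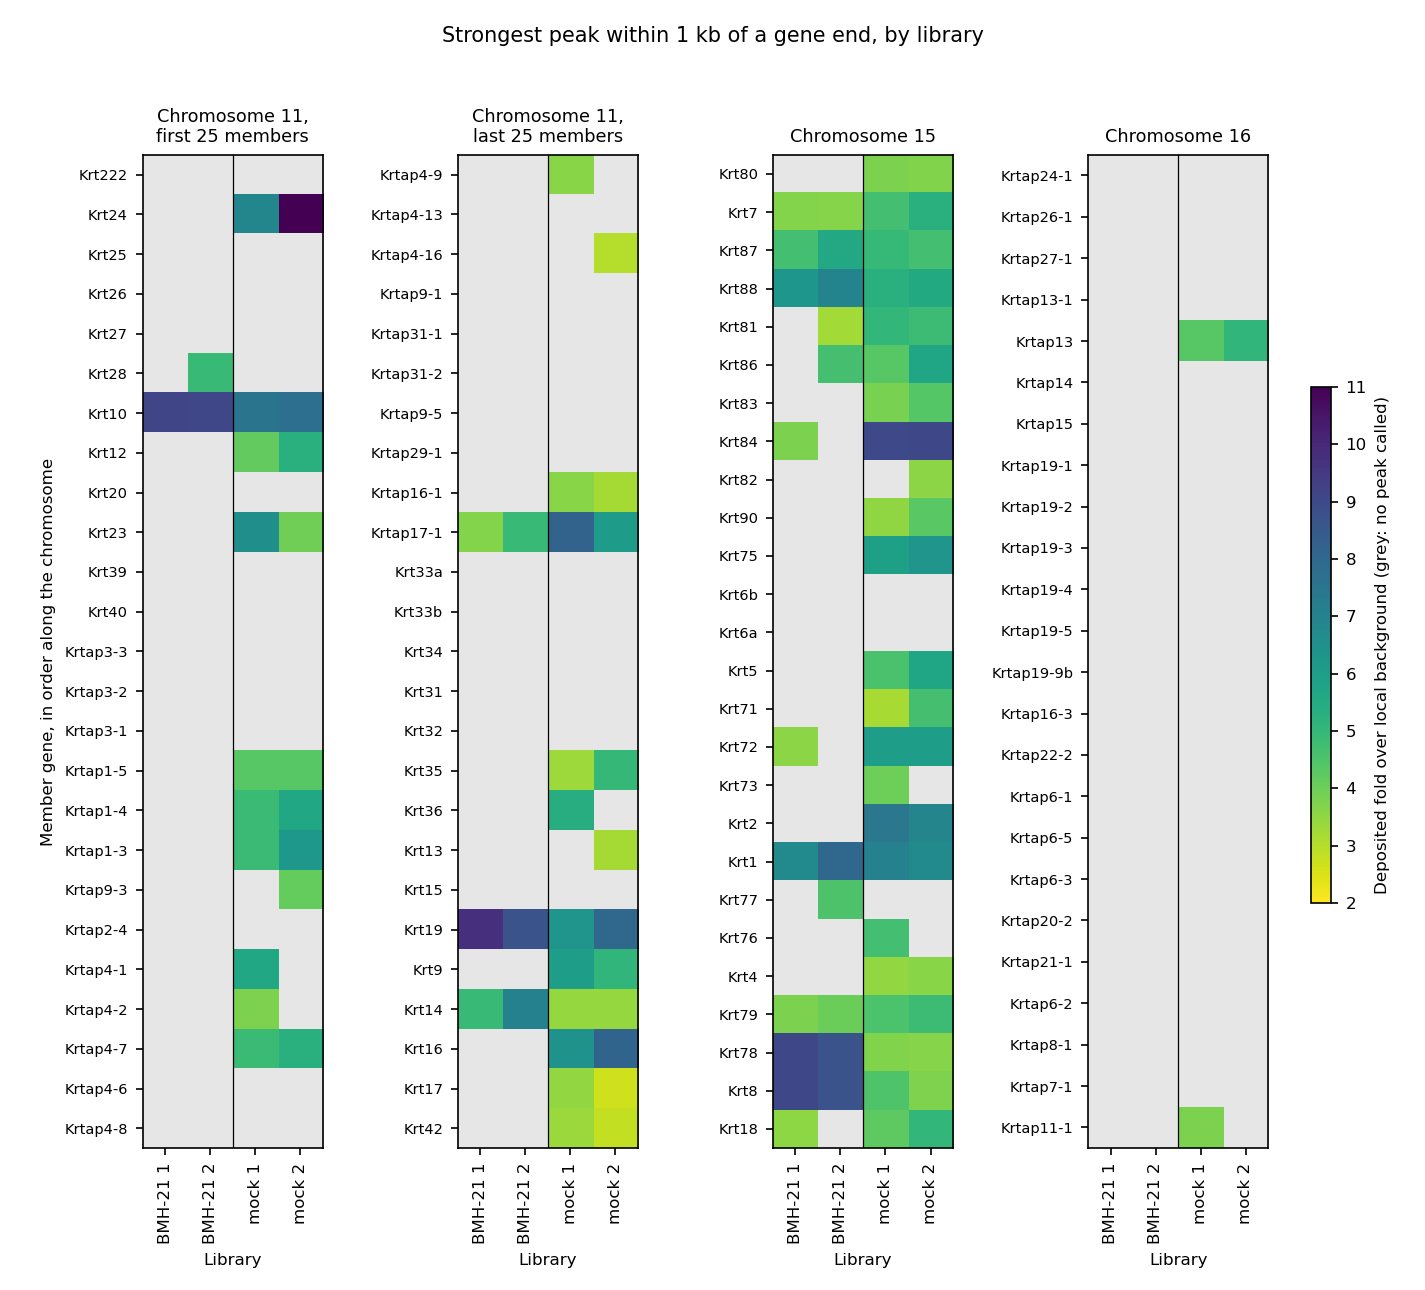
Fold of the strongest gene-end peak (colour, fold over local background of the same library; grey, no peak called) for the members on chromosomes 11, 15 and 16, in chromosomal order, with the BMH-21 libraries left of the line and the mock libraries right of it; the 9 members on chromosomes 1, 7 and 10 are not drawn. Most coloured rows on chromosome 11 are coloured on the mock side only, chromosome 15 has more rows coloured on both sides, and chromosome 16 is nearly all grey.

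A peak in some library was found for 37.5% of the KAP genes, against 53.6% of the type I and 92% of the type II genes. Of the 21 with a peak Krtap17-1 alone had one in a BMH-21 library. Each KAP gene is short (763 bp for Krtap17-1), so the windows at its ends cover the gene itself. Krtap17-1, a hair shaft protein gene at chr11:99993232-99993994, had a peak in all 4 libraries, in chr11:99993571-99994048. It had 3.66 and 4.89 in BMH-21 libraries, against 8.12 and 6.02 in mock libraries, without overlap. Among the 27 mock-only members 11 were KAP genes.

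On chromosome 11, where 23 of the 50 members are KAP genes, the mock-only ones were Krtap1-5, Krtap1-4, Krtap1-3, Krtap4-7 and Krtap16-1. The Krtap1 genes encode high-sulphur proteins of the hair cortex. Krtap1-3 had none in BMH-21, against 4.87 and 6.21 in mock, and Krtap1-4 none, against 4.87 and 5.65. Krtap1-5 had none, against 4.33 in each mock library, and Krtap4-7 none, against 4.87 and 5.27. Krtap16-1 was the weakest, with none in BMH-21 against 3.61 and 3.20 in mock. Krtap4-1, Krtap4-2 and Krtap4-9 had a peak in mock library 1 only (3.61 to 5.60), and Krtap9-3 and Krtap4-16 in mock library 2 only (4.14 and 3.01).

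The small groups on chromosomes 7 and 10 hold sulphur-rich KAP genes, whose proteins are high in cysteine. No BMH-21 library had a peak at any of the 8, against 7 with a peak in mock library 1 and 5 in mock library 2. Krtap5-2 had 2 mock-only regions, with 7.04 and 5.27 in mock libraries in one and 5.63 and 7.15 in the other, and Krtap10-10 had 8.45 and 5.12. Krtap10-4 had 4.88 and 5.33, Krtap5-4 4.51 and 3.95, and Krtap12-1 3.43 and 4.70. All 3 members of the chromosome 10 group were mock-only. Krtap5-3 and Krtap5-5 were held by mock library 1 alone (4.15 each) and Krtap5-1 by none. Krtap28-13, the only member on chromosome 1, was held by mock library 2 alone (4.89).

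The chromosome 16 cluster holds 24 KAP genes, among them the high-glycine-tyrosine families Krtap6, Krtap8 and Krtap19. Only 2 of the 24 had a peak: Krtap13, with none in BMH-21 libraries against 4.33 and 5.08 in mock libraries, and Krtap11-1, in mock library 1 alone (3.79). The other 22 had none in any library, and 18 of them, Krtap14 to Krtap7-1, form an unbroken run of 683 kb (chr16:88825291-89508323). Within that run there were 0 and 0 peaks of any kind in BMH-21 libraries, against 6 and 6 in mock libraries, all away from the gene ends. On chromosome 11 the longest runs without a gene-end peak held 5 members each: Krt39 to Krtap3-1, Krtap9-1 to Krtap29-1 and Krt33a to Krt32. Genes of 1 KAP family are alike in sequence, and the sources used here do not say how reads with several matches were treated. Among the 87 promoters read, only Krtap19-1 and Krtap19-2 were at least 90% identical to another member (91.2%), and neither had a peak.

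By chromosome, the type II cluster on chromosome 15 had the most members with a peak in all 4 libraries. Of its 26 genes 24 had a peak in some library, 20 in both mock libraries, 8 were mock-only and 7 were in all 4. Of the 50 genes on chromosome 11, 25 had a peak, 17 in both mock libraries, 13 were mock-only and 4 were in all 4. Of the chromosome 11 genes held by both mock libraries, 8 of 11 type I keratins and 5 of 6 KAP genes were mock-only. The differences between types and between chromosomes were not tested, since the family was selected on these peaks.

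Seen as regions, in which overlapping peaks of the 4 lists are merged, the member ends had 92. All 4 libraries held 10 of these (10.9%), against 18.7% of all 155908 regions in the lists. Mock-only were 42 (45.7%), against 31.0% of all, and BMH-21-only 3 (3.26%), against 4.36%. The 3 BMH-21-only regions were those at Krt14, Krt87 and Krt88 given above, so each lay at a gene that also had mock peaks elsewhere. Of the 10 regions in all 4 libraries, 5 had both BMH-21 folds above both mock folds (at Krt10, Krt19, Krt79, the start side of Krt8, and the ends of Krt78 and Krt8), and 3 had both below (at Krtap17-1, Krt7 and Krt87). Of all 29225 regions in all 4 libraries, 27.3% had both above and 53.7% both below. Since folds are relative to each library's own background, they rank peaks within a list and do not measure a change.

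**Figure D3:**
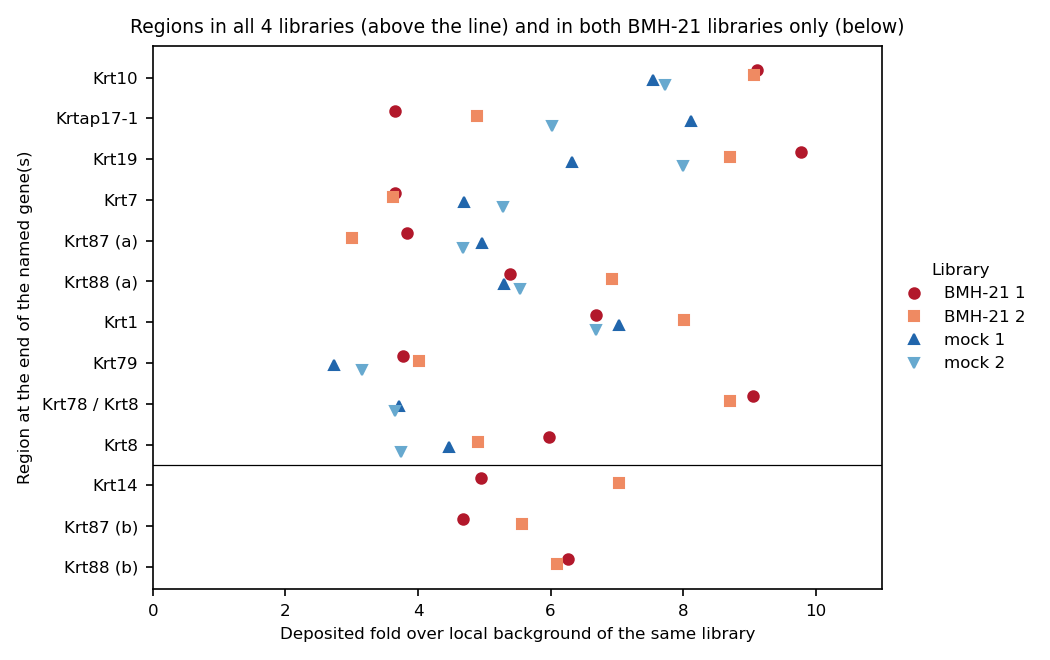
Deposited fold (horizontal axis, over the local background of the same library) of the 10 member regions found in all 4 libraries, above the line, and the 3 found in both BMH-21 libraries only, below it; 1 symbol per library, with a and b separating the 2 regions of a gene. The region near the ends of Krt78 and Krt8 had 9.06 and 8.71 in BMH-21, against 3.71 and 3.65 in mock, whereas Krtap17-1 had 3.66 and 4.89 in BMH-21, against 8.12 and 6.02 in mock.

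Few of these peaks belonged to neighbours at once. Of the 92 regions 4 lay within 1 kb of an end of 2 members: 2 near ends of Krt90 and Krt75 and 2 near ends of Krt78 and Krt8. Of the pair at Krt90 and Krt75, chr15:101562444-101562760 was mock-only (none in BMH-21, against 3.07 and 4.32 in mock) and the other was in mock library 2 alone (3.87). Beside the region at Krt78 and Krt8 already given, a second one was in mock library 2 alone (3.61). A single region was shared with a protein-coding gene outside the family, Gm40460 beside Krtap5-5, in mock library 1 alone (4.15). Without any peak shared with a neighbour, the count of mock-only members was 27 and 10 had a peak in all 4 libraries.

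Mock peaks of KAP genes lay downstream of the transcript start rather than on top of it. Among KAP genes with a peak within 1 kb of the start, the summit of the strongest was downstream of the start in 1 of 1 gene in each BMH-21 library, against 15 of 15 and 11 of 12 in the mock libraries. The median KAP summit lay 317 and 241 bp inside in the mock libraries, and 0 of them within 100 bp of the start. For type I keratins it lay 128 and 162 bp inside in the mock libraries, with 37.5% of summits within 100 bp in each, and for type II keratins 230 and 176 bp inside. Over all protein-coding genes, 48.1% and 48.6% of summits were downstream in BMH-21 libraries, against 73.4% in each mock library, and 53.7% and 52.7% lay within 100 bp of the start in BMH-21, against 27.4% and 27.5% in mock. The 6 members with a start peak in each BMH-21 library all had their summit downstream. Krtap17-1 had its summit 65 and 213 bp inside in BMH-21 libraries, against 205 and 207 bp in mock libraries.

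At Krt7 the summit lay 122 and 384 bp inside in BMH-21, against -18 and 99 bp in mock, a negative value being upstream. At Krt8 it lay 978 and 1044 bp inside in BMH-21, against 976 bp in each mock library. At Krt79 it was 997 and 958 bp inside in BMH-21, against -465 and -276 bp in mock, which are the separate regions described above. So the strongest start peak of Krt8 stood well inside the gene in both groups. That of Krt79 stood well inside in BMH-21 libraries and upstream in mock libraries.

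**Figure D4:**
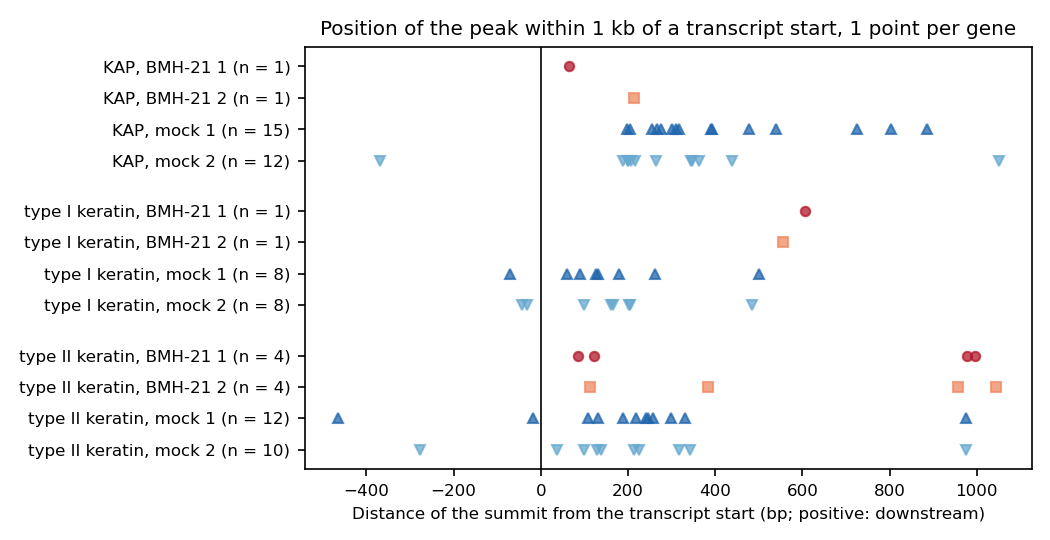
Distance of the summit of the strongest peak from the annotated transcript start (horizontal axis, bp, positive downstream), 1 point per gene with a start peak, by member type and library, n being the number of such genes. KAP summits in the mock libraries lie almost all to the right of the line, with medians of 317 and 241 bp, and each BMH-21 library has 1 KAP point.

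Counting peaks at annotated starts alone, for the 87 members with a start, 25 were held by both mock libraries and 19 of these (76.0%) were mock-only, against 9.93% of all 12003 protein-coding genes with such a peak. A start peak in all 4 libraries was found for Krt7, Krt8, Krt79 and Krtap17-1, against 59.4% of all 17492 protein-coding genes with a start. By type, 6 of 7 type I, 5 of 9 type II and 8 of 9 KAP genes were mock-only at the start. Krt10 and Krt78, which had peaks in all 4 libraries at gene ends, were mock-only at their starts, which lie 4110 and 8286 bp from the nearest annotated gene end.

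The members' mock peaks were weaker than those of other genes, as percentiles of the mock lists show. The strength of a gene, the mean percentile of its strongest peak in the 2 mock lists, had a median of 61.5 for the 43 members held by both mock libraries, against 86.9 for 15040 protein-coding genes. Up to percentile 25, 3 of 4 members were mock-only, against 36.0% of protein-coding genes, and between 25 and 50 it was 8 of 10, against 28.9%. Between percentiles 50 and 75 it was 10 of 17, against 17.7%, and above 75 it was 6 of 12, against 5.12%. Mock-only members had a median strength of 58.6 and those also held by a BMH-21 library 63.5. The part of list length and peak strength in the mock-only counts was not tested beyond these values.

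**Figure D5:**
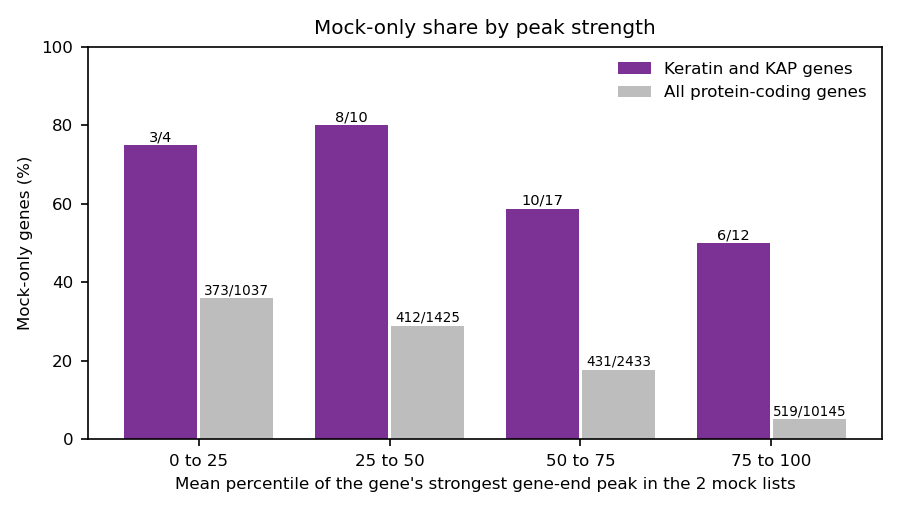
Percent of the genes held by both mock libraries that were mock-only (vertical axis), by the mean percentile of the gene's strongest peak in the mock lists (horizontal axis); purple bars, keratin and KAP genes; grey bars, all protein-coding genes; the numbers are mock-only genes over genes in the class. The member share was 6 of 12 above percentile 75, against 5.12% of protein-coding genes, and the member classes hold 4 to 17 genes.

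Peaks inside the clusters but more than 1 kb from any member's end did not enter the choice of genes and were compared between the groups. The 5 clusters, each a run of at least 3 members with gaps of at most 500 kb, held 25 and 25 such peaks in BMH-21 libraries, against 95 and 96 in mock libraries. The means were 25 ± 0 in BMH-21 and 95.5 ± 0.707 in mock (SD, n = 2 each), a difference of -70.5 and a ratio of 0.262. The gap exceeded the spread within each group, and the two-sided exact permutation test gave p = 0.33, the smallest that the 3 divisions of 4 libraries into 2 and 2 allow. Over the whole lists, BMH-21 had 0.47 times as many peaks as mock. With lists of equal length the difference was -9.0.

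The 3 large clusters had fewer peaks per Mb than the DNA beside them in each of the 4 libraries. The chromosome 11 cluster (chr11:99232761-100269951) had 9.64 and 13.5 peaks per Mb in BMH-21 libraries, against 49.2 and 38.6 in mock libraries. The 1 Mb on either side of it had 69.5 and 71.0 in BMH-21, against 132 and 141 in mock. On chromosome 15 (chr15:101348315-102032026) the cluster had 36.6 in each BMH-21 library, against 116 and 127 in mock, and its flanks 55.0 and 61.0, against 133 and 136. In mock cells the type II cluster thus came near its flanks in density, and the type I and KAP cluster did not. On chromosome 16 (chr16:88610709-89571183) the cluster had 2.08 and 1.04 per Mb in BMH-21, against 13.5 and 12.5 in mock, and its flanks 20.5 and 24.5, against 48.0 and 46.5. The 2 small clusters were less uniform. On chromosome 7 the cluster had 23.1 and 7.69 per Mb in BMH-21, against 92.3 and 61.6 in mock, and its flanks 38.5 and 41.5, against 130 and 128. On chromosome 10 the cluster had 8.57 and 17.1 in BMH-21, against 120 and 146 in mock, and its flanks 37.5 and 41, against 115 and 130, so in mock it was denser than its flanks.

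Genes that work with keratins were read in the same way, as counts without a test. Of 21 genes for other intermediate filaments, 18 had a peak in both mock libraries, 15 in all 4, and 3 were mock-only: Bfsp2 and Nefl, of the lens and neuronal filaments, and Gfap of astrocytes. Of the 15 in all 4, 9 had both BMH-21 folds above both mock folds and 3 both below, against 30.7% and 51.7% of the 12679 protein-coding genes in all 4 libraries. Of 24 genes listed for desmosomes and filament linkers 17 had a peak in both mock libraries and 12 in all 4. The list also held Krtcap2, Krtcap3 and Krtdap, which are not desmosome or linker genes, and each of these was in all 4. The 5 mock-only genes included the desmosomal cadherins Dsg2, with none in BMH-21 against 12.1 and 10.6 in mock, and Dsc2, with none against 9.23 and 11. The others were Pkp3, Plec and Eppk1, with mock folds of 2.24 to 2.95. Of the genes held by both mock libraries, 16.7% of the other filament genes and 29.4% of the desmosome and linker list were mock-only. The background was 11.5% of all protein-coding genes.

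Cornified envelope and hair sheath genes, expressed late in keratinocyte differentiation, also had few peaks. Of 42, 7 were held by both mock libraries and 5 of these (71.4%, background 11.5%) were mock-only: Sprr1a, Flg, Lce1m, Pof1b and Sprr1b. Sprr1a, a cornified envelope precursor, had none in BMH-21, against 8.66 and 9.60 in mock, and Flg, which bundles keratin filaments, none, against 9.22 and 6.94. Of 20 regulators of hair and epidermal keratin genes 17 had a peak in both mock libraries and 11 in all 4. Of the 17, 2 were mock-only, Tfap2a and Tfap2c (11.8%, near the background of 11.5%). Of the 11 in all 4, 6 had both BMH-21 folds above both mock folds and 3 both below. Trp63, the master regulator of stratified epithelium, was BMH-21-only, with 6.23 and 8.99 in BMH-21 and no peak in mock.

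Marker genes of spermatocytes, other testis cells and epithelia were counted likewise, without a test. Whether cells other than spermatocytes were in the preparation was not measured. Of 12 pachytene spermatocyte markers 11 had a peak in both mock libraries and 10 in all 4, and none was mock-only. In 9 of these 10 both BMH-21 folds were below both mock folds, against 51.7% of all protein-coding genes in all 4 libraries. At the other, H1f6, the groups overlapped, with 5.21 and 5.74 in BMH-21 against 5.63 and 6.7 in mock. Ccna1 had no peak. Of 7 macrophage markers a peak stood at 1 gene in each BMH-21 library, against 6 in each mock library, and 5 (C1qa, C1qc, Csf1r, Fcer1g and Tyrobp) were mock-only. Of 12 Sertoli cell markers 10 had a peak in both mock libraries, 5 in all 4, 4 (Kitl, Inha, Sox8 and Gata1) were mock-only and Rhox5 was BMH-21-only. Of 6 Leydig cell markers Star and Nr5a1 were mock-only, and 2 were in all 4. These were Cyp11a1, with 5.95 and 7.12 in BMH-21 against 3.73 and 3.91 in mock, and Insl3, with 4.09 and 5.51 in BMH-21 against 2.80 and 2.13 in mock. Of the genes held by both mock libraries the mock-only share was thus 5 of 6 macrophage, 4 of 10 Sertoli and 2 of 4 Leydig markers, against 11.5% of all protein-coding genes. Of 8 epithelial markers other than keratins, 6 had a peak in each library, 5 in all 4, with Esrp1 mock-only and Trp63, given above, BMH-21-only. Their part in the keratin and KAP counts was not tested. In bulk libraries fewer cells of a type and less accessibility per cell cannot be told apart.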

How the data were processed

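ATAC-seq peaks of 4 libraries of pachytene spermatocytes (2 BMH-21, 2 mock) were used as deposited. Per the submitters' processing notes the tools were fastp, Bowtie2, bedtools, deepTools and MACS2 2.1.0; the sources used here do not state caller settings. Each peak's deposited fold is a ratio to the local background of its own library. Deposited −log10 p and q values were used to rank and filter peaks, and the authors' score column was not used. The notes name mm39 and mm10; mm10 was used, since the last peak of chromosome 1 ends at 195371813, past the mm39 end. Positions are 1-based.

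Genes and their ends came from RefSeq tables (GRCm38.p6), without exons. A peak overlapping the window of 1 kb on either side of a gene end by at least 1 bp counted. Every member with a peak in both libraries of a group is given with its values; from each comparison list, up to 4 mock-only and 4 BMH-21-only genes with the highest mean fold were due, and further genes named beside them were chosen after their values were seen. The members and lists were chosen with earlier results of these data known. The p-value is from an exact permutation test of peak counts. Same-numbered libraries did not deviate together (correlation 0.00447 over 29225 regions). Alternatives were a stricter threshold, equal list lengths, peak width, summit position, other windows, gene bodies, the same gene end, and leaving out each library; 2 more, starts only and unshared peaks, were added after seeing the data. Python 3.11.15, numpy 2.4.6 and pandas 2.3.3 were used, and the counting was tested on simulated data.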

Additional observations from a re-analysis of the deposited data

How the results depend on the processing

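With lists of equal length, a peak in any library was found for 36 members, in both mock libraries for 21, mock-only 7 and BMH-21-only 1 (Krt14), against 59, 43, 27 and 0 as reported; all 4 libraries held 10, against 11. This shortens both mock lists most, by construction. With a window of 500 bp 6 members had a peak in all 4 libraries. With transcript starts only, an alternative added after seeing the data, both mock libraries held 25 and all 4 held 4 members, of the 87 with an annotated start. Leaving out each library in turn gave 29 to 36 mock-only, 11 to 14 in all libraries left and 0 to 2 BMH-21-only members, the 2 being Krt28 and Krt77 without BMH-21 library 1. A −log10 q of at least 5 gave 27 mock-only of 40 members with a peak in both mock libraries.

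The difference in cluster peaks away from gene ends ran from -74.5 (window of 500 bp) to -9.0 (equal lengths), with exact permutation p = 0.33 throughout, which 2 against 2 libraries cannot go below. As a replicate block, the 2 pairs of same-numbered libraries gave -70.5 (exact sign-flip p = 0.5, the smallest possible). The check of their deviations gave no sign of such a pairing, but with 2 libraries a group it cannot exclude shared animals or days. Having 2 libraries a group, unknown depth and folds relative to each library's background limit all of these values.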
